A study of Mus musculus with 9 samples.

Results

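Molecular chaperones and heat shock proteins were examined in neutrophils of the bone marrow, taking every listed gene named as an HSP70, HSP90, small heat shock protein, mitochondrial chaperonin or J-domain protein, or as a subunit of the cytosolic chaperonin TRiC, with pseudogenes left out. This gave 45 of the 7197 genes in the table, namely 2, 7 and 17 J-domain genes of types A, B and C, 7 TRiC genes, 6 HSP70 genes, 3 HSP90 genes, 2 mitochondrial chaperonin genes and Hspbap1. No gene of the Hsph type and no small heat shock protein itself was listed. Hspa1a, Hspa1b and Hspa9 were not listed among the HSP70 genes, nor Cct3 among the TRiC genes, so none of these is analysed here. The 5 Rragc+/+ and 4 RragcS74N/+ libraries came from mice aged 2 months, which the study describes as C57BL/6. RragcS74N/+ mice carry 1 allele of Rragc edited to encode an active form of RagC in every cell, beside 1 unedited allele, and Rragc+/+ mice carry 2 unedited alleles. Cells were sorted as CD45+ CD11b+ Ly6G+, and polyadenylated RNA was read from the 3′ end.

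Chaperones bind proteins that are unfolded or partly folded and keep them from aggregating until they reach their final shape. HSP70 proteins hold short greasy stretches in a cycle of ATP hydrolysis, J-domain proteins deliver the client and start that hydrolysis, and nucleotide exchange factors release it, while HSP90 acts late on kinases and receptors and the ring-shaped chaperonins enclose their clients. RagC reports to mTORC1, a kinase complex, that amino acids suffice, and mTORC1 promotes protein synthesis and so the supply of new proteins to fold. Neutrophils are short-lived phagocytes filled with granule proteins made in the bone marrow. The comparison asks whether an active RagC goes with other chaperone transcript levels in neutrophils of young animals.

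Depth and identity were checked first. Recovered reads over all listed genes ran from 1214295 to 1973957 per library, of which chaperones took 0.245% to 0.323%, or 3494 to 5554 reads. All 10 neutrophil markers were listed, whereas 0 of 4 primary granule, 0 of 5 T and NK cell and 0 of 4 platelet markers were. A gene that is not listed has no value here, so this is not a measured absence. Erythroid markers, 5 of 6 listed, summed to 1083 to 5506 normalized counts in Rragc+/+ and 369 to 2092 in RragcS74N/+, and monocyte markers, 2 of 6 listed, to 135 to 390 and 108 to 186. Eosinophil and basophil markers, 2 of 6 listed, summed to 12.2 to 100.3 and 23.9 to 187, the B cell marker Ighm, 1 of 6 listed, to 87.6 to 140.3 and 83.5 to 122.8, and the 7 of 7 cell cycle genes to 370.2 to 764 and 396 to 643. Rragc itself measured 61.9 to 87.6 normalized counts in Rragc+/+ and 51.8 to 72.1 in RragcS74N/+, ranges that overlap, and a count by gene does not show which allele was read. Rragc+/+ replicate 2 stood apart, since its Spearman correlation with other libraries averaged 0.891, against 0.929 to 0.951 for the remaining 8. Below, values given as mean ± SD are over 5 Rragc+/+ and over 4 RragcS74N/+ libraries, in that order where only numbers are given.

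Chaperone genes are classically induced through short elements near their start, of which those of the heat shock and of the endoplasmic reticulum (ER) stress response were searched. The matches, found in a few members each, are shown because they do not depend on the counts. RefSeq windows of 300 bases on assembly GRCm38.p6, from 250 bases before to 50 bases after the annotated start, were found for 37 of the 45 genes. A heat shock element of 3 units, GAANNTTCNNGAA searched on both strands, occurred in 3 of 37 members (8.11%) and in 179 of all 27025 genes with a window (0.662%). The 3 members were Hspd1 and Hspe1, which encode the mitochondrial chaperonin and its lid, and Dnajb6, a J-domain protein known to hold back protein aggregates. Hspd1 and Hspe1 lie head to head and share 1 stretch at chr1:55088054-55088081, in which matches on both strands overlap and form 4 units in a row. Below, capitals mark the units and lower case the bases between and beside them, each sequence written 5′ to 3′ on the strand of its gene.
Hspe1 (plus strand): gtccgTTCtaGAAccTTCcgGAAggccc
Hspd1 (minus strand, the same bases): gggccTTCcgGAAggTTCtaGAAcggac
Dnajb6 (plus strand, chr5:29735847-29735869): tccgaGAAtcTTCcgGAAcgcta

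The ER stress response element, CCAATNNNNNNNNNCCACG on either strand, also occurred in 3 of 37 members (8.11%), against 37 of 27025 genes (0.137%). They were Hspa5, which encodes the ER HSP70 BiP, Hsp90b1, which encodes the ER HSP90 GRP94, and Dnajc3, a J-domain partner of BiP. Hsp90b1 had a second match on the opposite strand. Each of these matches contains a CCAAT box, a motif that on its own was found in 40.5% of members and 41.1% of all genes. In the following sequences on the strand of each gene, capitals mark the 2 fixed parts of the element. A match describes letters in the window and is not a measured binding site.
Hspa5 (plus strand, chr2:34772020-34772048): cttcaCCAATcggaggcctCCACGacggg
Hsp90b1 (minus strand, chr10:86705633-86705661): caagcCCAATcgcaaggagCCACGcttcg
Dnajc3 (plus strand, chr14:118937822-118937850): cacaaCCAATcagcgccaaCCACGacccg

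Chaperone transcripts ran from a mean of 8.03 for Dnajc25 to 640.0 for Dnajb6, and a few J-domain, HSP90 and HSP70 transcripts made up most of them. All levels are normalized counts, that is, reads divided by a size factor per library, and because each transcript is read at its 3′ end they were compared between genes without division by length. A mean of 10 was reached by 42 of the 45 genes, one of 50 by 21, one of 100 by 7 and one of 200 by 5. Dnajb6 alone held 16.5% of the summed level, the 3 highest genes 40.4% and the 6 highest 57.6%. In order these 6 were Dnajb6, Dnajc8, Hsp90ab1, Hspa5, Dnajc5 and Dnaja1.

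**Figure D1:**
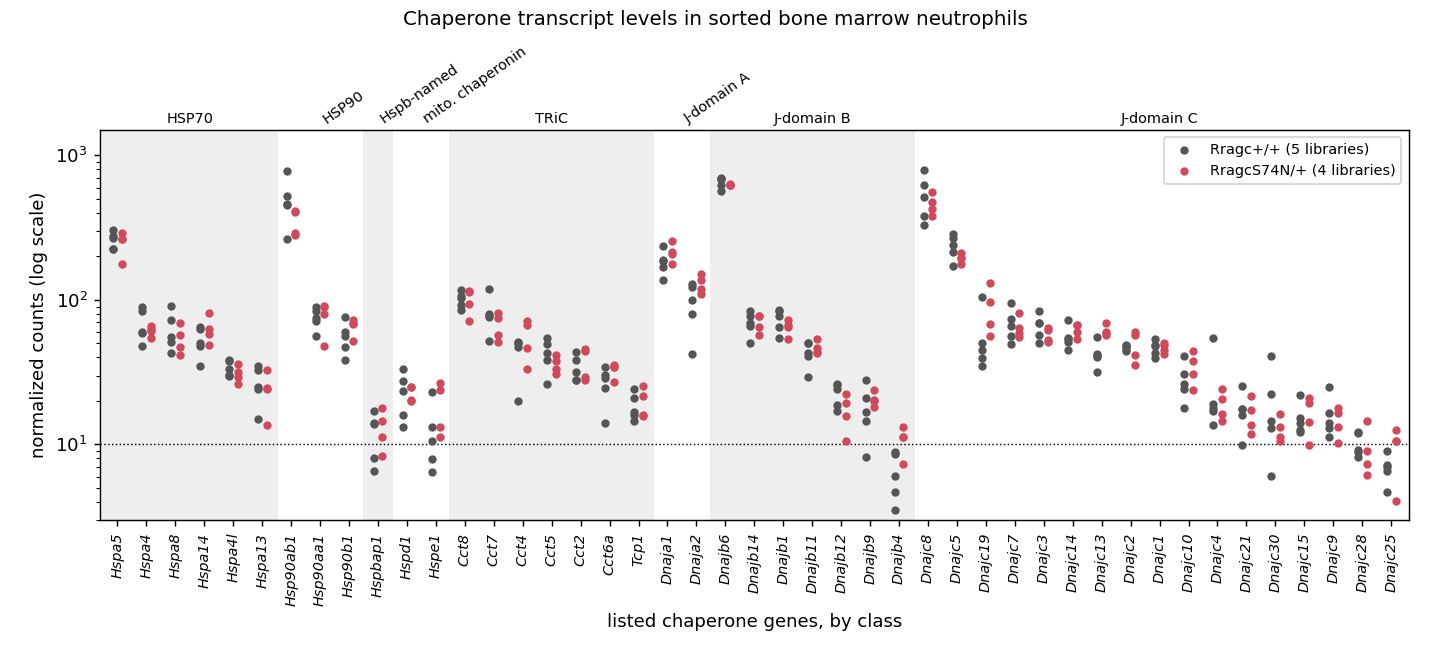
Normalized counts (log axis) of the 45 chaperone genes in each of 5 Rragc+/+ (grey) and 4 RragcS74N/+ (red) libraries, grouped by class and ordered by mean level, with a dotted line at the mean of 10 used for testing. Points of the genotypes lie over each other in nearly every column, and Dnajb6, Dnajc8 and Hsp90ab1 stand highest.

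Between the genotypes, no chaperone passed the corrected threshold, and changes in both directions were equally frequent. With limma on log2(value + 1), 42 members were tested among the 6673 genes whose mean reached 10, and 0 of the 42 had a Benjamini-Hochberg adjusted p under 0.05, as did 0 of all genes tested (0.0%). The smallest adjusted p of a member was 0.713. At an unadjusted p under 0.05, 2 members were higher in RragcS74N/+ (4.76% of members, against 2.01% of all genes) and 0 were lower (against 3.81%). By edgeR and by DESeq2 on the recovered reads 0 members had an adjusted p under 0.05. At the unadjusted level 1 did in each (2.38% of members, against 6.89% of all genes with edgeR and 6.7% with DESeq2). The genotypes did not overlap for 1 member, which was higher (against 0.674% of all genes), and for 0 members that were lower (against 1.02%). These shares rest on 1 or 2 genes and lie on both sides of the background, so no result is drawn from them. The members split into 21 higher and 21 lower, of which 17 changed direction in at least 1 of the alternative settings, with a median log2 change of -0.0006 beside 0.02 over all genes, and single changes ran from -0.46 for Hsp90ab1 to 0.71 for Dnajc19. Fewer cells of a type and less RNA per cell cannot be told apart in such bulk samples. Since the labels do not say whether each library is 1 animal, p-values measure the spread between these libraries.

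**Figure D2:**
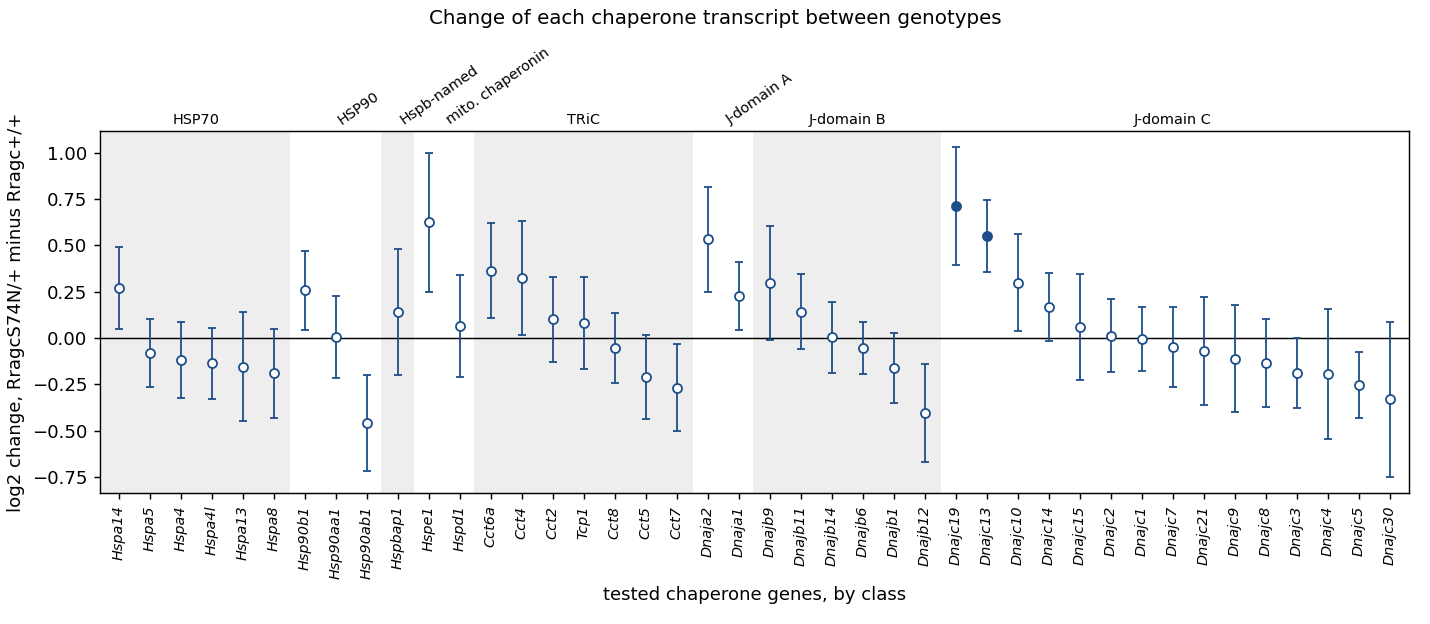
Log2 change (RragcS74N/+ minus Rragc+/+, on the log2(value + 1) scale) with its limma standard error for the 42 tested chaperone genes by class; filled points had an unadjusted p under 0.05. Changes scatter evenly about 0, from -0.46 for Hsp90ab1 to 0.71 for Dnajc19, the filled points being Dnajc13 and Dnajc19.

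Dnajc13 was the member whose genotypes did not overlap. It encodes RME-8, a J-domain protein of endosomes that works with HSP70 in sorting and recycling of membrane receptors. Its Rragc+/+ libraries measured 40.8, 31.5, 40.3, 55.5 and 42.1 normalized counts in replicates 1 to 5, and its RragcS74N/+ libraries 69.6, 56.9, 58.7 and 59.6 in replicates 1 to 4. All 4 mutant values lay above the highest wild-type value, although the gap between 55.5 and 56.9 was small. The means were 42.1 ± 8.59 (SD, n = 5) and 61.2 ± 5.71 (SD, n = 4), a log2 change of 0.55 with a standard error of 0.19 (limma, unadjusted p = 0.0130, Benjamini-Hochberg adjusted p = 0.713). The unadjusted p stayed under 0.05 in 20 of 20 alternative settings, from 0.00517 to 0.0446, and the adjusted p ranged from 0.326 to 0.994. Without the trend on 3′ GC content described further on, the change was 0.40.

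Dnajc19 showed the largest change of the members and also one of the largest spreads. It encodes a J-domain subunit of the motor that pulls precursor proteins into mitochondria. Rragc+/+ libraries measured 50.7, 35.1, 45.0, 39.4 and 105.3 normalized counts, and RragcS74N/+ libraries 56.4, 96.6, 68.5 and 130.6. Apart from Rragc+/+ replicate 5, every wild-type value lay under every mutant value, while replicate 5 exceeded 3 of the 4 mutant libraries. The log2 change was 0.71 with a standard error of 0.32 (limma, unadjusted p = 0.0412, Benjamini-Hochberg adjusted p = 0.713), and the means were 55.1 ± 28.7 (SD, n = 5) and 88.0 ± 33.0 (SD, n = 4). Leaving out single libraries moved the change between 0.50 (without RragcS74N/+ replicate 4) and 0.97 (without Rragc+/+ replicate 5), and the unadjusted p was under 0.05 in 10 of 20 settings. The erythroid, the neutrophil and the eosinophil and basophil marker sums were also highest in Rragc+/+ replicate 5 and in RragcS74N/+ replicate 4 within their genotypes. The mean erythroid sum was 3137 in Rragc+/+ and lower, at 1101, in RragcS74N/+. Means of the neutrophil sum (149873 and 160408) and of the eosinophil and basophil sum (36.6 and 105) were higher in RragcS74N/+. The part of such cells in the result was not tested.

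Of the HSP90 genes, Hsp90ab1 had the lowest fitted change of all tested members, while Hsp90aa1 (0.006) and Hsp90b1 (0.26) were not lower in RragcS74N/+. Hsp90ab1 encodes the constitutive cytosolic HSP90 and measured 464.3, 779.4, 522.1, 456.6 and 265.7 normalized counts in Rragc+/+ and 289.1, 404.6, 412.7 and 283.2 in RragcS74N/+. Of the wild-type libraries 4 lay above every mutant library, and Rragc+/+ replicate 5 lay under all of them. Its log2 change was -0.46 with a standard error of 0.26 (limma, unadjusted p = 0.0985, adjusted p = 0.713). This changed to -0.28 without Rragc+/+ replicate 2 and to -0.66 without Rragc+/+ replicate 5, where the unadjusted p of Hsp90ab1 reached 0.00767.

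The stress-inducible cytosolic form, Hsp90aa1, showed no such direction, at 75.3 ± 12.6 normalized counts in Rragc+/+ and 77.1 ± 20.2 in RragcS74N/+. The level of Hsp90ab1 over that of Hsp90aa1 was 8.20, 9.26, 6.96, 6.38 and 2.98 in the Rragc+/+ and 3.18, 8.47, 5.17 and 3.15 in the RragcS74N/+ libraries, so the proportion of the transcripts varied from library to library within both genotypes. Hsp90b1, the ER form shown above with an ER stress response element, measured 55.6 ± 14.3 and 65.4 ± 8.83. The 3 genes together summed to 628 ± 172 and 490 ± 61.3, and both Hsp90aa1 and Hsp90b1 differed by less than the spread between replicates.

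**Figure D3:**
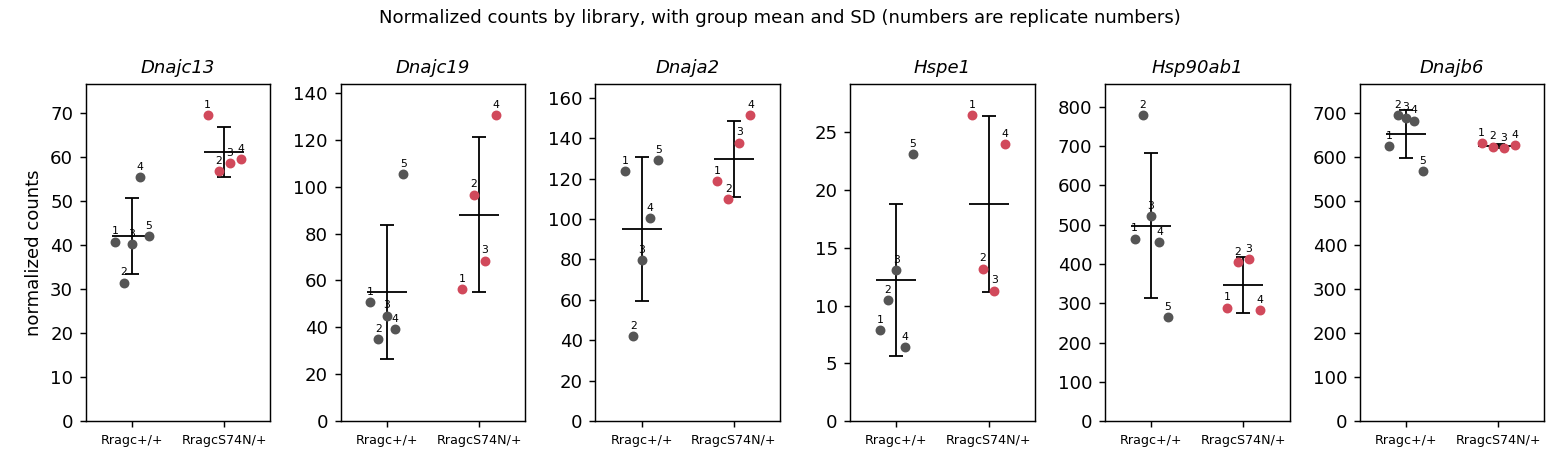
Normalized counts of 6 chaperone genes in each library (points, labelled with the replicate number), with group mean and SD as bars, for Rragc+/+ (n = 5) and RragcS74N/+ (n = 4). Dnajc13 values do not overlap, by a small gap (55.5 against 56.9), with a limma adjusted p of 0.713. Dnajc19, Dnaja2, Hspe1 and Hsp90ab1 overlap through 1 or more wild-type libraries, and Dnajb6 is nearly level.

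Of the HSP70 genes 1 was higher and 5 lower, with a median log2 change of -0.13, while 53.4% of all tested genes were higher. Without RragcS74N/+ replicate 4 the changes of Hspa5 and Hspa13 turned to 0.07 and 0.08. None of the 6 HSP70 genes had an unadjusted p under 0.05. Hspa5 (BiP) was the highest of them, at 268.7, 226.7, 305.5, 275.7 and 223.6 normalized counts in Rragc+/+ and 289.8, 263.3, 262.9 and 176.6 in RragcS74N/+, where RragcS74N/+ replicate 4 was the lowest library and the remaining values overlapped. Hspa8, the constitutive cytosolic HSP70, measured 62.7 ± 19.3 and 53.9 ± 12.3. The 3′ end of Hspa8 has near-identical copies in 6 pseudogenes, to which the authors' alignment could have given some of its reads, so its level is uncertain.

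Hspa4 and Hspa4l encode nucleotide exchange factors of the HSP110 type, and the highest library was 1.87 times the lowest for Hspa4 and 1.46 times for Hspa4l. They measured 68.1 ± 17.8 and 33.9 ± 3.98 normalized counts in Rragc+/+ and 61.1 ± 4.99 and 30.8 ± 3.97 in RragcS74N/+. Hspa14 and its J-domain partner Dnajc2 form the complex that meets new chains at the ribosome. Hspa14 measured 52.3 ± 12.4 and 62.8 ± 13.2, a log2 change of 0.27 with a standard error of 0.22 that was 0.13 without Rragc+/+ replicate 3 and 0.14 without RragcS74N/+ replicate 3. Dnajc2 measured 47.2 ± 1.94 and 48.6 ± 11.9, with 1 near-identical pseudogene at its 3′ end. Hspa13, a microsomal member of the family, measured 26.3 ± 7.82 and 23.6 ± 7.75.

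The mitochondrial chaperonin pair was scarce and did not keep a fixed ratio. Hspe1, which encodes the HSP10 lid, measured 7.90, 10.5, 13.1, 6.43 and 23.1 normalized counts in Rragc+/+ and 26.5, 13.2, 11.3 and 24.0 in RragcS74N/+. Rragc+/+ replicate 5 lay just under the 2 highest mutant libraries, and the other two mutant libraries lay beside the wild-type values. The log2 change of 0.62 had a standard error of 0.38 (limma, unadjusted p = 0.119, adjusted p = 0.713), these being 8 to 40 reads per library at a 3′ end with near-identical copies in 2 other genes.

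Hspd1, which encodes HSP60 and shares its heat shock element with Hspe1, measured 22.6 ± 8.16 and 22.5 ± 2.81, and its level over that of Hspe1 ran from 0.75 in RragcS74N/+ replicate 1 to 4.25 in Rragc+/+ replicate 4. Over the 9 libraries the levels of both genes correlated with r = 0.28 (exact permutation test over pairings, two-sided, p = 0.463) and rho = 0.07 (exact permutation test, p = 0.880), or adjusted over 2 pairs 0.544 and 0.880. Without the 2 libraries farthest from the median of Hspd1, r was -0.06. The median r over all pairs of tested genes was -0.003.

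The TRiC ring holds its subunits in equal number, yet their transcripts differed in level. Cct8 was highest at 101 ± 12.3 normalized counts in Rragc+/+ and 98.4 ± 20.4 in RragcS74N/+, and Tcp1, the first subunit, was lowest at 18.5 ± 3.96 and 19.7 ± 4.75. Cct8 exceeded Tcp1 by 2.80-fold to 7.31-fold, depending on the library. Between them lay Cct7 (81.0 ± 24.1 and 66.0 ± 14.1), Cct4 (43.8 ± 13.5 and 54.5 ± 17.8), Cct5 (42.5 ± 11 and 35.8 ± 4.99), Cct2 (33.9 ± 6.73 and 36.8 ± 9.58) and Cct6a (26.3 ± 7.71 and 33.0 ± 3.89).

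Of the 7 subunits 4 were higher and 3 lower in RragcS74N/+, none past an unadjusted p of 0.05, with log2 changes from -0.27 for Cct7 to 0.36 for Cct6a. Without Rragc+/+ replicate 2 these changes were -0.12 and 0.16, and Cct2, Cct8 and Tcp1 changed direction when RragcS74N/+ replicate 2 was left out. The sum over the subunits measured 347 ± 21.9 and 344 ± 34.3. Its smaller relative spread follows from summing parts that do not vary together, so no result is drawn from it. As a description over 9 libraries, the median r of the 21 subunit pairs was -0.05, from -0.84 to 0.86, beside 0.01 over the 861 pairs of chaperones.

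Among the cytosolic J-domain genes, both of type A had higher means in RragcS74N/+ and neither passed an unadjusted p of 0.05. Dnaja2 measured 123.8, 42.1, 79.7, 100.5 and 129.3 normalized counts in Rragc+/+ and 118.7, 109.8, 137.8 and 151.5 in RragcS74N/+. The lowest value, in Rragc+/+ replicate 2, was less than 0.5 of any mutant value, whereas replicates 1 and 5 of Rragc+/+ lay inside the mutant range. Its log2 change was 0.53 with a standard error of 0.28 (limma, unadjusted p = 0.0817, adjusted p = 0.713), and 0.27 without Rragc+/+ replicate 2. Dnaja1, the most abundant type A gene, measured 184 ± 35.5 and 214 ± 32.7, and its log2 change of 0.23 was 0.07 once the 3′ GC trend was removed.

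Dnajb6 was both the highest and the steadiest of all chaperones. It measured 625, 695.3, 688.9, 682.5 and 567.5 normalized counts in Rragc+/+ and 631.2, 623.2, 620.6 and 626.0 in RragcS74N/+. Its highest library was 1.23 times its lowest, and 3 of the 621 other tested genes with a mean within 2-fold of its own had a smaller ratio. Over all tested genes the median of this ratio was 2.22, and over the tested chaperones 2.20. Dnajb1, the standard cytosolic partner of HSP70 in refolding, measured 72.9 ± 13.3 and 64.4 ± 7.79. Its level correlated with that of Hspa8 with r = 0.23 (exact permutation test, two-sided, p = 0.544, also 0.544 adjusted over 2 pairs) and rho = 0.25 (exact permutation test, p = 0.521), and r was -0.52 without the 2 libraries farthest from the median of Hspa8.

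None of the J-domain genes of the ER had an unadjusted p under 0.05. Dnajb9 and Dnajb11, soluble partners of BiP, measured 17.7 ± 7.43 and 42.8 ± 8.71 normalized counts in Rragc+/+ and 20.6 ± 2.50 and 46.6 ± 4.83 in RragcS74N/+. Dnajb12 and Dnajb14 sit in the ER membrane and act in the removal of misfolded proteins. Dnajb12 measured 22.4 ± 4.23 and 17.0 ± 5.18, a log2 change of -0.41 with a standard error of 0.26 (limma, unadjusted p = 0.147, adjusted p = 0.714) that was -0.20 without RragcS74N/+ replicate 4, and Dnajb14 measured 69.5 ± 12.7 and 69.3 ± 9.73. Dnajc3 measured 66.1 ± 12.9 and 57.2 ± 6.38, so that of the 3 genes with an ER stress response element Hsp90b1 had the higher mean in RragcS74N/+ and Hspa5 and Dnajc3 the lower one, each within its spread.

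The other abundant J-domain genes of type C have special tasks. Dnajc8, a spliceosome-associated protein, measured 381.3, 787.6, 620.5, 519.3 and 330.9 normalized counts in Rragc+/+ and 383.2, 558.1, 476.8 and 427.4 in RragcS74N/+, all mutant values falling inside the wild-type range. Dnajc5 encodes cysteine string protein, which guards the fusion machinery of secretory vesicles, and measured 236 ± 45.2 and 195 ± 14.3. Its log2 change was -0.25 with a standard error of 0.18 (limma, unadjusted p = 0.174, adjusted p = 0.724), and -0.11 with the 3′ GC trend removed. Dnajc7, which bridges HSP70 and HSP90, measured 68.3 ± 18 and 65.0 ± 11.4.

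At the low end, Hspe1 and Hspbap1 were the tested genes nearest to the mean of 10. Hspbap1, named for a protein that binds a small heat shock protein and not itself a chaperone of that family, measured 11.9 ± 4.42 and 13 ± 4.11. Dnajc28, Dnajb4 and Dnajc25 lay under the filter and were not tested, at 10.1 ± 1.88, 6.32 ± 2.35 and 6.91 ± 1.55 in Rragc+/+ and 9.26 ± 3.75, 10.8 ± 2.49 and 9.44 ± 3.70 in RragcS74N/+. The remaining J-domain genes of type C, 8 in number, were tested with none at an unadjusted p under 0.05 and log2 changes from -0.33 to 0.30.

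Between libraries of 1 genotype, members deviated in opposite directions. In Rragc+/+ replicate 2, 7 of 42 chaperones (16.7%) differed by more than 1 log2 unit from their mean in the other libraries, as did 16.4% of all tested genes, against 0 or 1 chaperone in every other library. Dnajc30, a mitochondrial J-domain protein, and Dnajc4 were highest there, at 40.9 and 54.9 normalized counts against 6.02 to 22.5 and 13.7 to 24.1 elsewhere. They are named after their values were seen. Hsp90ab1 was also higher there, by a log2 difference of 1.05. Lowest there, by log2 differences of -1.45, -1.32, -1.19 and -1.09, were Dnaja2, Cct4, Dnajb9 and Cct6a.

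These deviations went with the base composition of the transcript ends. Over 42 chaperones the deviation in Rragc+/+ replicate 2 had a Spearman correlation of 0.57 with the GC content of the last 500 bases, and 0.39 over 6556 genes. In Rragc+/+ replicate 5 it was -0.42 and -0.23, and in RragcS74N/+ replicate 4 it was -0.42 and -0.23, while in RragcS74N/+ replicate 1 it was -0.11 over the chaperones and -0.41 over all genes. Dnajc4 had 58.2% GC, Cct7 and Dnajc5 51.2% and Hsp90ab1 49.8%, while Dnajc19 had 34.0%, Dnaja1 35.6%, Cct4 35.8%, Cct6a 36.2% and Dnaja2 38%. Other members ran against the trend in Rragc+/+ replicate 2, such as Dnajb11 with 50.6% GC and a deviation of -0.64, Cct8 with 35.4% and 0.12 and Dnajc3 with 32.6% and 0.19, and Dnajc30, with the highest deviation there of 1.61, had 45.4% GC. These are correlations across genes of 1 library, which are not independent replicates, and whether base composition causes the deviations was not tested.

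**Figure D4:**
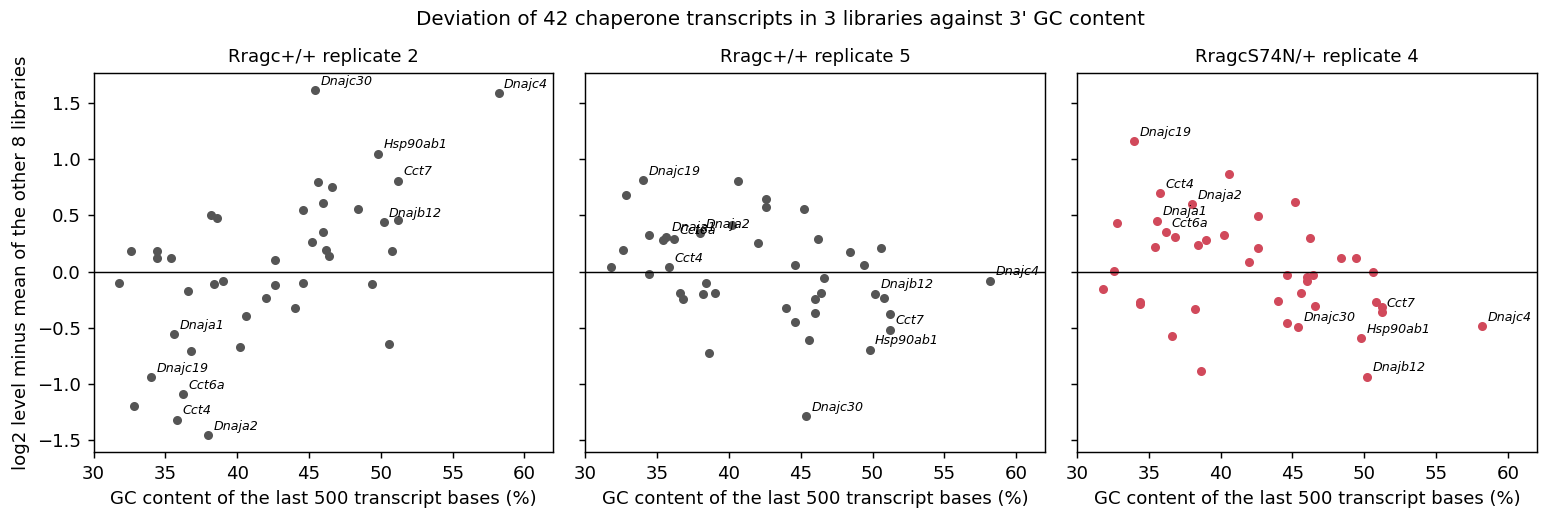
Log2 level of 42 chaperone genes in a library minus their mean over the other 8 libraries, against the GC content (%) of the last 500 transcript bases, for Rragc+/+ replicates 2 and 5 (grey) and RragcS74N/+ replicate 4 (red). Points climb with GC content in Rragc+/+ replicate 2 (Spearman 0.57) and descend in the other two libraries (-0.42 in each).

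Of the 861 pairs of chaperones, with a median r of 0.01 over the 9 libraries, those at the extremes are given here as a description. The pairs with the highest r were Dnaja1 with Hsp90b1 (0.96), Cct6a with Dnaja2 (0.96) and Cct6a with Hsp90b1 (0.93), which remained at 0.92, 0.81 and 0.95 without Rragc+/+ replicate 2 and at 0.91, 0.91 and 0.89 with the 3′ GC trend removed. The next, Dnaja2 with Dnajb11 (0.908), fell to 0.629 without Rragc+/+ replicate 2 and was at 0.933 with the 3′ GC trend removed. The pairs with the lowest r were Dnajb11 with Dnajc7 (-0.905) and Dnajb9 with Dnajc5 (-0.898). They were at -0.849 and -0.901 without Rragc+/+ replicate 2 and at -0.824 and -0.732 with the 3′ GC trend removed. Cct4 with Dnajc4 (-0.891) was at -0.617 without Rragc+/+ replicate 2 and at -0.849 with the 3′ GC trend removed. Dnajc30 with Hsp90b1 (-0.889) was at -0.769 and -0.816 in these settings, in that order. Both values of a point come from the same library and share its depth. The 3′ GC content differed within some pairs, such as Dnajb9 (32.8%) with Dnajc5 (51.2%). It was closer in others, such as Dnaja1 (35.6%) with Hsp90b1 (40.2%).

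Genes that work beside the chaperones were counted in the same way. Of 94 genes in 7 lists of related functions, 66 were listed and 63 tested, and 0 passed the adjusted threshold in either direction, while 0 were higher and 3 lower at an unadjusted p under 0.05 (against 2.01% and 3.81% of all genes). Heat shock factors were represented by Hsbp1 alone, which encodes a binding protein that restrains heat shock factor and measured 394 ± 65.6 and 418 ± 147. Of 17 tested cochaperones of HSP90 and HSP70, 0 had an unadjusted p under 0.05. Sugt1, which links HSP90 to innate immune receptors, measured 173 ± 29.5 and 198 ± 64.2, and Cdc37, which brings kinases to HSP90, 99.7 ± 24.7 and 74.3 ± 11.2.

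Prefoldin, which passes nascent actin and tubulin to TRiC, and the TRiC cofactors had 0 of 10 tested genes at an unadjusted p under 0.05 and a median log2 change of 0.33. The prefoldin subunits Pfdn5 and Vbp1 measured 537 ± 123 and 170 ± 52.6 normalized counts in Rragc+/+ and 574 ± 257 and 235 ± 56.7 in RragcS74N/+. Of 3 tested genes of mitochondrial folding 0 had an unadjusted p under 0.05, with Yme1l1, a protease of the inner membrane, at 164 ± 25.1 and 161 ± 27.8 and Grpel1, the exchange factor of mitochondrial HSP70, at 15.3 ± 3.25 and 20.7 ± 6.54.

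In the ER folding list 1 of 17 tested genes had an unadjusted p under 0.05. This was Ddit3, which encodes the stress transcription factor CHOP, at 70.5, 255.9, 135.9, 110.1 and 104.3 normalized counts in Rragc+/+ and 58.3, 67.1, 70.8 and 79.4 in RragcS74N/+. Rragc+/+ replicate 2 was by far the highest, and only Rragc+/+ replicate 1 fell inside the mutant range. Its log2 change was -0.84 with a standard error of 0.29 (limma, unadjusted p = 0.0124, adjusted p = 0.713), with -0.57 without Rragc+/+ replicate 2 and -0.54 with the 3′ GC trend removed. Sel1l and Ero1a, the highest genes of the list, act in ER-associated degradation and disulfide formation and measured 110 ± 8.5 and 106 ± 16.3 and 109 ± 19.7 and 112 ± 22.5.

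Of 6 tested genes of disaggregation and proteotoxic stress, Hmox1, which encodes the haem-degrading enzyme haem oxygenase, had an unadjusted p under 0.05. It measured 97.5, 341.2, 203.4, 106.1 and 110.3 in Rragc+/+ and 114.0, 82.3, 78.3 and 56.4 in RragcS74N/+, so that RragcS74N/+ replicate 1 lay above 3 wild-type libraries. The log2 change was -0.91 with a standard error of 0.34 (limma, unadjusted p = 0.0186, adjusted p = 0.713), and without RragcS74N/+ replicate 4 the unadjusted p was 0.0635. The monocyte marker sum was highest in Rragc+/+ replicates 2 and 3 too, and its part in the result was not tested. Sqstm1, the autophagy receptor p62, and Vcp, the segregase of ubiquitinated proteins, measured 379 ± 62 and 334 ± 27.2 against 330 ± 36.5 and 315 ± 39.4.

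Immediate early genes, which handling of cells can induce, had 1 of 9 at an unadjusted p under 0.05. Log2 changes in this list went in both directions, from -1.09 for Jund to 0.47 for Dusp1, with a median of -0.08. Jund measured 214.7, 1137, 722.6, 297.4 and 175.5 in Rragc+/+ and 214.2, 252.1, 203.4 and 102.4 in RragcS74N/+, and its 2 highest values were in Rragc+/+ replicates 2 and 3. The log2 change was -1.09 with a standard error of 0.47 (limma, unadjusted p = 0.0374, adjusted p = 0.713). It was -0.71 without Rragc+/+ replicate 2 (unadjusted p = 0.0816 in limma), and the unadjusted p also exceeded 0.05 without Rragc+/+ replicate 3 (0.0949), without RragcS74N/+ replicate 1, 3 or 4 (0.0544, 0.0550 and 0.125), with moderation without a trend (0.0534) and with the 3′ GC trend removed (0.0634). Nfkbia and Junb, the highest of the list, measured 1033 ± 98.9 and 658 ± 124 and 994 ± 101 and 628 ± 135.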

How the data were processed

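Per the study's methods and the submitters' processing notes, the authors aligned 3′-end reads to GRCm39 with TopHat2 (version 2.0.10), counted them by gene and strand with HTSeq (version 0.6.1), and divided counts by library size factors. The deposited values are thus a signal of normalized read counts. The sources used here do not say if molecular identifiers served to collapse reads or how the listed genes were filtered, so counting error may understate noise. All values (100%) were whole multiples of 1 read within 0.1 reads, and these reads were used for edgeR (version 4.0.16) and DESeq2 (version 1.42.0).

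The limma package (version 3.58.1, R version 4.3.3) was run for every gene whose mean reached 10, on log2(value + 1), with trended moderation, genotype as the one term and all 9 libraries, adjusted by Benjamini-Hochberg at a threshold of 0.05. This scale understates changes of low genes. Libraries were grouped by the labelled genotype and numbered in order, and 0 columns lacked a sample. The study's text describes more RragcS74N/+ mice than the 4 libraries analysed here. Correlations used exact permutations, and the planned pair of Hsp90aa1 with Hsph1 was not run because Hsph1 was not listed.

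Named are all members of classes of up to 8 genes, the 4 highest of larger classes, the 5 smallest p-values in each direction, members whose genotypes did not overlap, those at or under the filter, and from each pathway list the 2 highest genes and those at an unadjusted p under 0.05. Members, lists and tests were chosen with earlier results of these data known. Base composition and near-identical 3′ ends (at least 97% identity over 75 of the last 300 bases) came from GENCODE transcripts of GRCm38 matched by symbol, and promoter windows from RefSeq.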

Additional observations from a re-analysis of the deposited data

Results flagged for a closer look

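In 92 groups of libraries (45 chaperone genes and Rragc in 2 genotypes), 4 held a library whose gap to its nearest neighbour took an unusually large part of the group's range, and about 1 in 20 groups, here 4.6, would do so by chance. In Rragc+/+, Cct4 was low in replicate 2, at 19.9 normalized counts against 47.1 in the next library, a gap of 0.863 of the range. Dnajc4 was high in the same library, at 54.9 against 19.0 (0.869 of the range). Dnajc19 was high in Rragc+/+ replicate 5, at 105.3 against 50.7 (0.777 of the range). In RragcS74N/+, Cct6a was low in replicate 1, at 27.2 against 34.6 (0.884 of the range).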

How the results depend on the processing

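Over 20 alternatives (pseudocount, filter, scaling, moderation, weights, edgeR, DESeq2, removal of the 3′ GC trend, which was added after the data were seen, and removal of each of 9 libraries) the count of chaperones past the adjusted threshold was 0 throughout, as was that of the pathway genes. The 2 chaperones at an unadjusted p under 0.05 became 1 (Dnajc13, 2.38% of members) with moderation without a trend, edgeR, DESeq2 and the GC trend removed. The shares of all genes there were 5.66%, 6.89%, 6.7% and 3.85%, in that order. With array quality weights the count became 4, adding Dnaja2 and Hspa14 (9.52% of members, beside 11.5% of all genes). Leaving out 1 library gave 1 to 6, the 6 without Rragc+/+ replicate 5 being Dnaja2, Dnajc13, Dnajc19, Dnajc5, Hsp90ab1 and Hspe1 (14.3% of members, beside 13.7% of all genes). It gave 1, Dnajc13, without Rragc+/+ replicate 2, 3 or 4 (2.38% of members, beside 3.02%, 3.36% and 4.83% of all genes). The same 1 remained without RragcS74N/+ replicate 2 or 4 (2.33% of members, beside 3.83% and 3.37% of all genes). Without Rragc+/+ replicate 1 or RragcS74N/+ replicate 1 or 3 the count was 2 (4.76% of members, beside 9.6%, 4.65% and 6.19% of all genes). The median log2 change stayed between -0.0684 and 0.0321 when 1 library was left out. The correlation of Hspa8 with Dnajb1 ran from -0.16 (without Rragc+/+ replicate 2) to 0.48 when 1 library was left out.

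Over all 42 tested chaperones, 17 turned direction in at least 1 alternative, all from changes between -0.19 and 0.14, and 25 did not. Of 455 refitted log2 changes of 23 genes followed one by one, 6 turned. Without single libraries Rragc reached 0.0011, Dnajc8 ran from -0.2871 to 0.0250, Hspa5 reached 0.0732 and Hspd1 ran from -0.1018 to 0.2148, and Hspd1 was -0.0005 with the GC trend removed. The causes were not tested. No paired analysis was run because the labels used here give nothing that pairs a Rragc+/+ library with a RragcS74N/+ library. Genes near the filter rest on few reads, so a change of less than their spread was not detectable at this depth.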
